A study of Mus musculus with 27 samples.

Results

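Lysosomal hydrolases and lysosomal membrane proteins were followed in mouse embryonic stem (ES) cells after RNA interference (RNAi) against subunits of MOF-containing chromatin complexes. The set was a list of 42 genes given by name, drawn up with earlier results of these data known. It held 10 peptidases (Ctsa, Ctsb, Ctsc, Ctsd, Ctsf, Ctsh, Ctsl, Ctss, Ctsz and Tpp1) and 11 glycosidases (Gla, Glb1, Gaa, Gusb, Hexa, Idua, Naglu, Neu1, Man2b1, Manba and Fuca1). It also held 5 sulfatases (Arsa, Arsb, Galns, Ids and Sgsh) and 6 lipid enzymes and carriers (Asah1, Galc, Lipa, Npc2, Psap and Smpd1). The remaining members were 8 membrane proteins (Cd63, Cln3, Lamp1, Lamp2, Laptm4a, Mcoln1, Npc1 and Scarb2) and 2 other luminal proteins (Grn and Ifi30). Of the 42 genes, 40 had a probeset whose log2 value averaged 6 or more over the 27 arrays, and the brightest such probeset stood for the gene. Ctsh (mean 5.14) and Ctss (mean 5.54), cathepsins H and S, lay under that level and were not tested. The 40 members are set beside 13989 genes that passed the same filter.

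Lysosomes are acidic organelles in which hydrolases take apart proteins, glycans, sulfated glycosaminoglycans and lipids delivered by endocytosis and autophagy. Most soluble hydrolases are tagged with mannose phosphate and carried from the Golgi by receptors, while membrane proteins such as LAMP1 and LAMP2 form the protective lining and NPC2 passes cholesterol to NPC1 for export. Many of these genes carry E-box elements that are bound by TFEB and TFE3, factors kept in check by mTORC1 signalling at the lysosome surface.

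RNA was hybridised to Affymetrix mouse gene arrays, and the values are log2 expression values of the authors. MOF (gene symbol Kat8) acetylates histone H4 within the MSL and NSL complexes, and MSL1 is a scaffold of the first of these. The line PGK12.1 is female (a 129 mother and a 129 x PGK hybrid father), WD44 is male with a BL6 background, and E14 is male, here a BL6 x Cast hybrid per the labels. All lines were kept with LIF on mouse embryonic fibroblast feeders, which were depleted on gelatin before RNAi. In PGK12.1 there were 3 MOF arrays against 3 control arrays (experiments 1 to 3), and 3 NSL1 (C, D, E), 2 MOF and MSL1 (D, E) and 3 MSL1 (A, B, C) arrays against 5 control arrays (A to E). WD44 and E14 had 2 MOF arrays against 2 control arrays each. The siRNA dose was 100 pmol over 48 h, and control cells were given a non-targeting siRNA at that dose. MOF and MSL1 cells received 50 pmol of Msl1 siRNA as well. In PGK12.1, experiments 1 and 2 repeated the RNAi with 400 pmol over a further 24 h, controls included. The labels describe separate RNAi treatments of each line, so replicates are cultures of 1 line and not separate animals.

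Kat8 and Msl1 fell where the labels name MOF and MSL1. Kat8 fell by 1.22 on the log2 scale after MOF siRNA in PGK12.1, by 0.84 in WD44 and by 0.68 in E14. Msl1 fell by 0.97 after MSL1 siRNA (limma adjusted p of 0.00044 or less for each of these falls). With MOF and MSL1 targeted together Kat8 fell by 0.87 (limma adjusted p = 3.24e-05) and Msl1 by 0.46 (limma adjusted p = 0.00506). The Kansl1 probesets differed in direction in arrays labelled NSL1 (-0.24 and 0.50), and Nsl1 stood at 0.16, so that NSL1 stands here for the label only. All 10 ES cell markers passed the level filter, with Pou5f1 between 11.97 and 12.96 on all arrays. Of 10 macrophage markers, 1 (Tyrobp) passed it, and of 12 fibroblast markers 8 did. Array medians stepped between 6 sets of experiments (6.22 to 7.96), so fold changes are taken within an experiment. Statements on overlap between groups pool arrays of several experiments and therefore also carry these steps. The fold changes come from limma fitted to all 27 arrays with the experiment as a block, and a gene was called at an adjusted p under 0.05 over 16283 probesets. In bulk RNA, fewer cells of a type and less RNA per cell cannot be told apart.

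In PGK12.1 the lysosomal genes moved in both directions and not as 1 group, after MOF siRNA and in NSL1 arrays. In the male lines most of the called members rose, while over all probesets more fell than rose. After MOF siRNA in PGK12.1, 10 members rose and 9 fell, where 23.4% of all probesets were called (9.49% higher and 13.9% lower). In arrays labelled NSL1, 11 rose and 14 fell, where 39.8% were called (18.4% higher and 21.4% lower). With MOF and MSL1 targeted together 2 rose and 1 fell (6.44% called, 3.24% higher and 3.19% lower), and after MSL1 siRNA 1 rose and none fell (0.184% called, 0.0983% higher and 0.086% lower). MOF siRNA in WD44 gave 9 higher members and 1 lower (12.4% called, 4.38% higher and 7.98% lower), and in E14 4 higher and 1 lower (8.33% called, 3.6% higher and 4.73% lower). The member median was 0.017 after MOF siRNA in PGK12.1 against 0.0 over all genes, and -0.065 against -0.009 in NSL1 arrays. In WD44 it was 0.083 against -0.02, with 26 of 40 members above 0, against 6265 of 13989 genes. These differences were not tested. With each array centred on its median the split was 6 higher and 10 lower after MOF siRNA in PGK12.1, 5 and 3 in WD44, and 2 and 2 with both targets. Centring also shifted the calls over all probesets in these comparisons, with fewer higher and more lower. The changed split can therefore not be read as particular to the members.

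The calls differ in how much of the design they rest on. In a fit without the block, 9 of the 19 calls after MOF siRNA in PGK12.1 remained (Ctsd, Ctsz, Glb1, Gusb, Ids, Lipa, Smpd1, Lamp2 and Grn), where that fit called 7.68% of all probesets. In NSL1 arrays 17 of 25 calls remained (28.3% of probesets called), and those of Gaa, Gusb, Hexa, Neu1, Galc, Npc1, Scarb2 and Cd63 did not. With both targets 2 of 3 remained (Lipa and Ifi30, 9.9% called), and after MSL1 siRNA none did (0.0614% called). With both targets the fit without the block called 1 member higher and 6 lower, and 4 of these 6 were sulfatases. That fit sets the double-target arrays of D and E against all controls A to E. Array medians were 6.74 to 6.81 in A to C and 6.39 to 6.44 in D and E. These counts therefore also carry that step, and it cannot be told apart from the targets there. None of the 10 WD44 calls remained (0.608% of probesets called) and 1 of the 5 E14 calls did (Ifi30, 0.669% called). With 2 arrays a group, these lines draw mostly on the spread of the PGK12.1 arrays. Leaving out 1 array of WD44 or E14 leaves 1 array in a group. Fewer members were then called in these lines, and fewer of all probesets as well. The same held with both targets when a control or double-target array of D or E was left out. Whether members lost more of their calls than other genes was not tested.

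In total 33 of the 40 members were called in at least 1 of the 6 comparisons. The matching share of all genes was not computed, and in NSL1 arrays alone 39.8% of all probesets were called. Lipa, Npc2 and Ifi30 were called in 5 comparisons, Glb1 and Grn in 4, and Lamp2 in 3. The 7 members called in none were Ctsa, Tpp1, Gla, Idua, Arsb, Cln3 and Mcoln1. These are cathepsin A (a serine carboxypeptidase), a tripeptidyl peptidase, 2 glycosidases, a sulfatase, the membrane protein of one form of Batten disease and a cation channel of the lysosome.

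**Figure D1:**
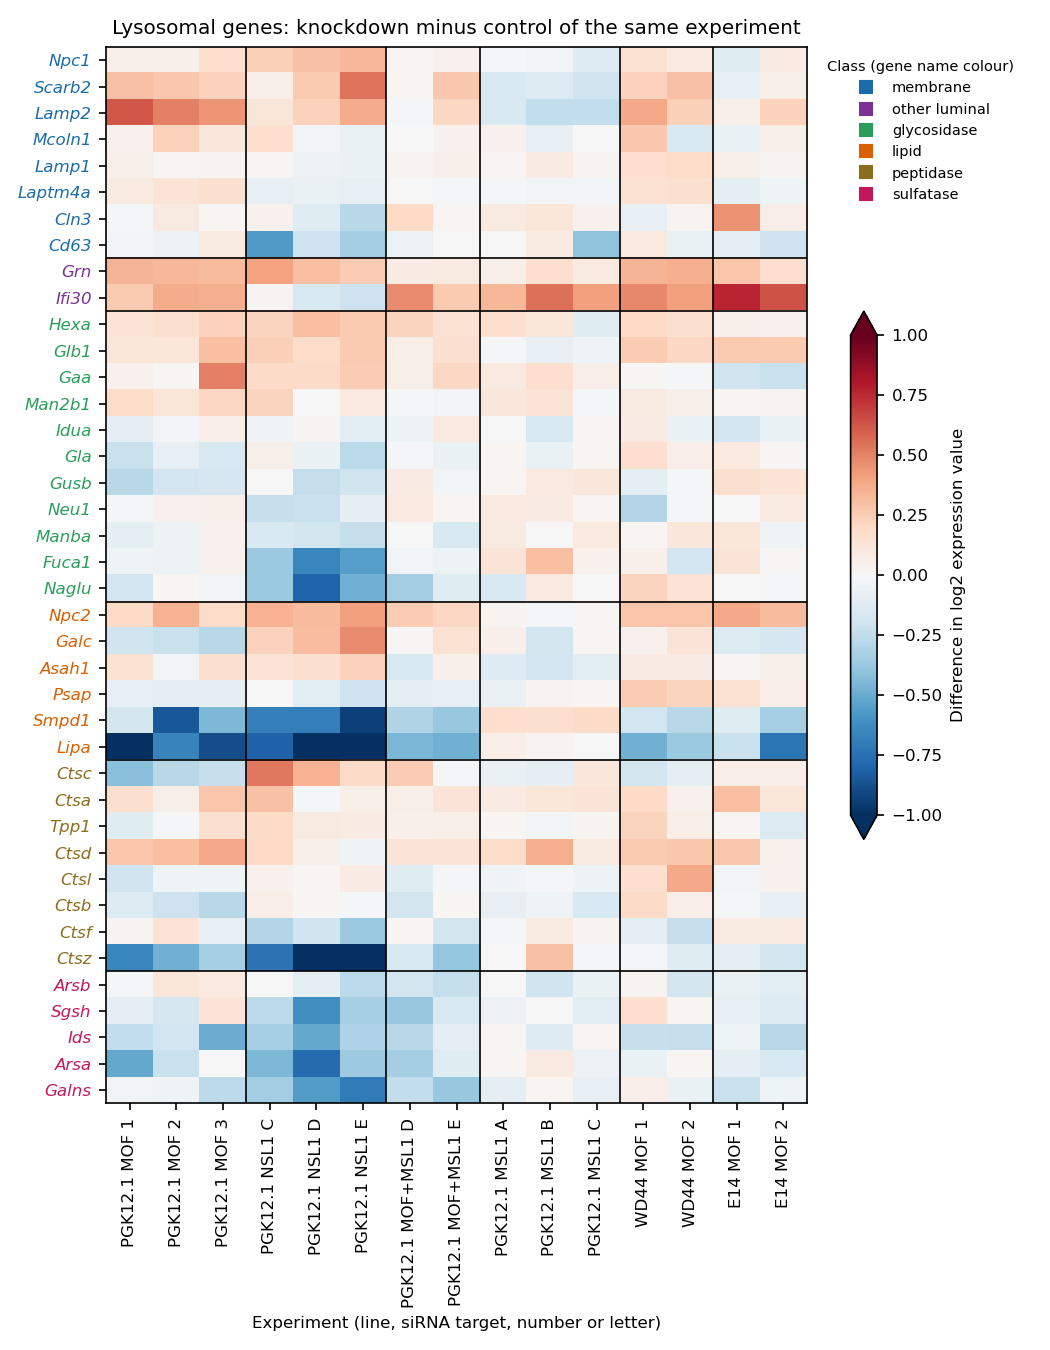
Difference in log2 value (colour, from -1 in blue to 1 in red) between the knockdown array and the control array of the same experiment, for 40 lysosomal genes (rows, grouped by class and ordered within a class by the NSL1 fold change) in 15 pairs of arrays (columns). Lipa is blue in every MOF, NSL1 and double-target column, Npc2 and Grn are red in the MOF and NSL1 columns, and 4 of the 5 sulfatases are blue in the NSL1 columns.

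The classes differed in the balance of higher and lower members. After MOF siRNA in PGK12.1, 3 of 8 membrane proteins rose and none fell (median 0.11), and both other luminal proteins rose (median 0.33). Of 6 lipid members 1 rose and 3 fell (median -0.16), of 8 peptidases 1 rose and 3 fell (-0.04), of 11 glycosidases 3 rose and 1 fell (-0.02), and of 5 sulfatases 2 fell and none rose (-0.11). Over all genes tested 9.84% rose and 14.6% fell in this comparison. In NSL1 arrays 4 of 5 sulfatases fell (median -0.39), and the glycosidases split into 3 higher and 5 lower, where 18.8% of all genes rose and 22.4% fell. These class counts are descriptions, and the differences between classes were not tested.

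**Figure D2:**
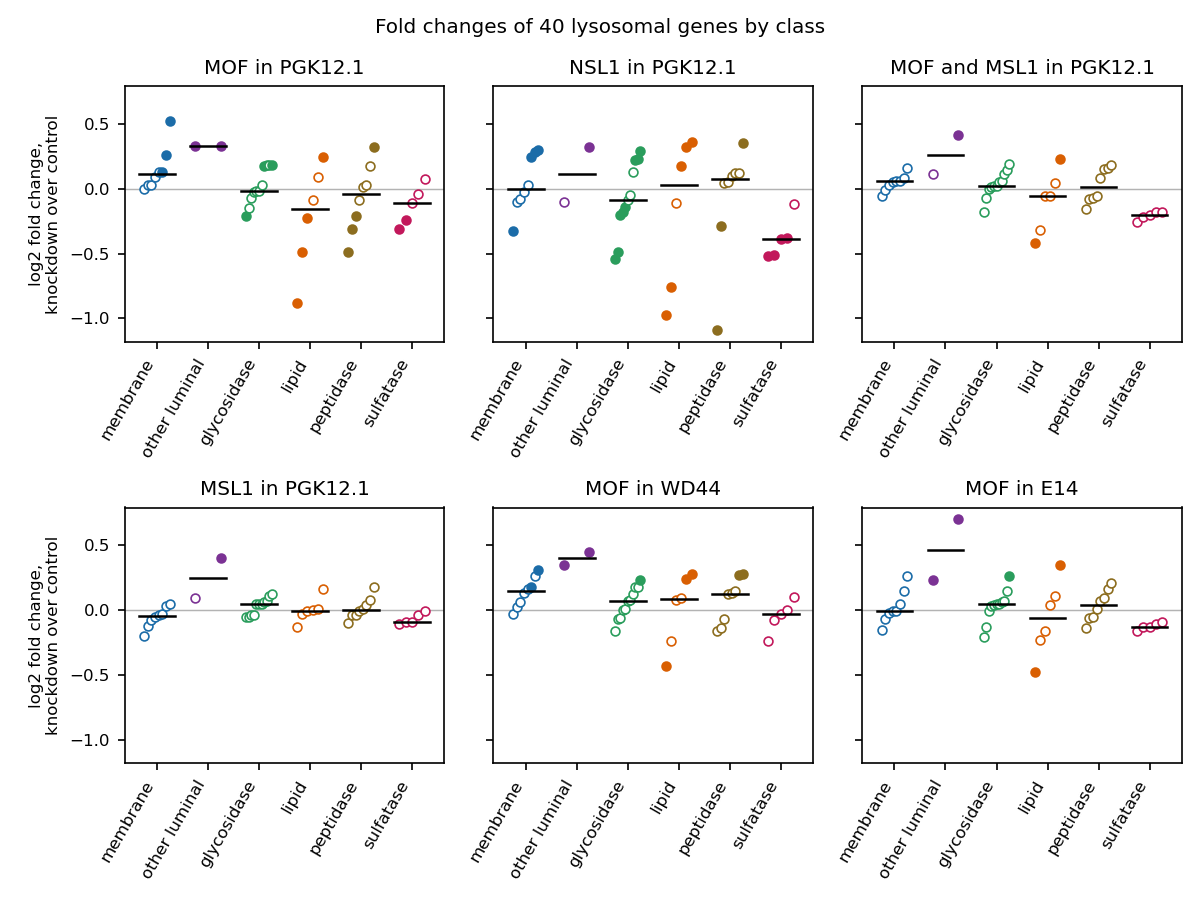
Fitted log2 fold change, knockdown over control, of the 40 lysosomal genes in 6 comparisons (panels), by class (x axis). Each point is a gene, filled where limma called it at an adjusted p under 0.05, and the black line is the class median. Filled points lie on both sides of 0 in the MOF and NSL1 panels of PGK12.1, while 1 point, Ifi30, is filled in the MSL1 panel.

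Lipa, the acid lipase that frees cholesterol and fatty acids from lipoprotein lipids, had the deepest fall of the lipid members. Its log2 values were 5.57, 5.98 and 6.54 after MOF siRNA in PGK12.1 (experiments 1 to 3), against 6.66, 6.65 and 7.43 in the paired controls. All 3 MOF values lay below all 3 control values, and the fold change was -0.88 (SE 0.09, limma adjusted p = 1.87e-05, 3 pairs). In NSL1 arrays Lipa had 6.20, 5.73 and 5.63 (C, D, E), against 7.01, 6.89 and 6.63 in the controls, again without overlap (-0.97, SE 0.09, limma adjusted p = 8.12e-07).

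With MOF and MSL1 targeted together Lipa had 6.43 and 6.15, against 6.89 and 6.63 in controls D and E (-0.42, SE 0.11, limma adjusted p = 0.0309). In WD44 it had 8.99 and 9.04 after MOF siRNA, against 9.47 and 9.41 in controls (-0.43, SE 0.11, limma adjusted p = 0.0255). In E14 it had 7.03 and 6.79 after MOF siRNA, against 7.25 and 7.52 in controls (-0.48, SE 0.11, limma adjusted p = 0.0193). Knockdown arrays lay below control arrays in each of these 3 comparisons, and 2 of the calls (both targets and WD44) were lost without any 1 of their 4 arrays. The pair of experiment 1 in E14 differed by -0.22 and that of experiment 2 by -0.73, and the call was lost without either array of experiment 2. Msl1 siRNA alone left Lipa at 7.07, 7.05 and 7.01, against 7.00, 7.02 and 7.01 in its controls.

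Smpd1, the acid sphingomyelinase, fell in 2 of the comparisons in which Lipa fell. It had 6.81, 6.35 and 7.12 after MOF siRNA in PGK12.1, against 6.99, 7.2 and 7.57 in controls, lower in each pair but with overlapping groups (-0.49, SE 0.09, limma adjusted p = 0.00128). In NSL1 arrays it had 7.40, 6.93 and 6.76, against 8.08, 7.61 and 7.69, without overlap (-0.76, SE 0.09, limma adjusted p = 6.82e-06). Its values in the male lines were also lower in each pair after MOF siRNA (9.87 and 9.75 against 10.06 and 10.03 in WD44, 7.40 and 7.43 against 7.52 and 7.76 in E14), without passing the test.

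Npc2, the soluble carrier that hands cholesterol to Npc1, rose where Lipa fell. After MOF siRNA in PGK12.1 it had 8.93, 9.01 and 10, against 8.73, 8.66 and 9.82 in the paired controls, higher in each pair (0.24, SE 0.05, limma adjusted p = 0.00172). The groups overlapped, with experiment 3 higher in both arms. In NSL1 arrays Npc2 had 10.45, 10.25 and 10.26, against 10.10, 9.93 and 9.85, without overlap (0.36, SE 0.04, limma adjusted p = 1.56e-05). In E14 it had 9.83 and 9.93 after MOF siRNA, against 9.45 and 9.61 in controls (0.35, SE 0.06, limma adjusted p = 0.00272), and in WD44 10.56 and 10.47 against 10.28 and 10.19 (0.28, SE 0.06, limma adjusted p = 0.00836). With MOF and MSL1 targeted together it had 10.18 and 10.06, against 9.93 and 9.85 in controls D and E (0.23, SE 0.05, limma adjusted p = 0.0218). After MSL1 siRNA it had 10.14, 10.10 and 10.11, against 10.11, 10.11 and 10.10 in controls. Without the block the NSL1 call of Npc2 remained and the others did not (limma adjusted p of 0.0547 to 0.35). The WD44 call was lost without any 1 of its 4 arrays, and the E14 call without either array of experiment 1.

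The other lipid members moved less. Galc, the galactosylceramidase, fell after MOF siRNA in PGK12.1 (7.22, 7.2 and 7.35 against 7.42, 7.42 and 7.63) and rose in NSL1 arrays (7.97, 7.72 and 7.79 against 7.74, 7.41 and 7.32). Asah1, the acid ceramidase, rose by 0.17 in NSL1 arrays and Psap, the precursor of the saposins, rose by 0.24 in WD44, each without a call elsewhere.

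**Figure D3:**
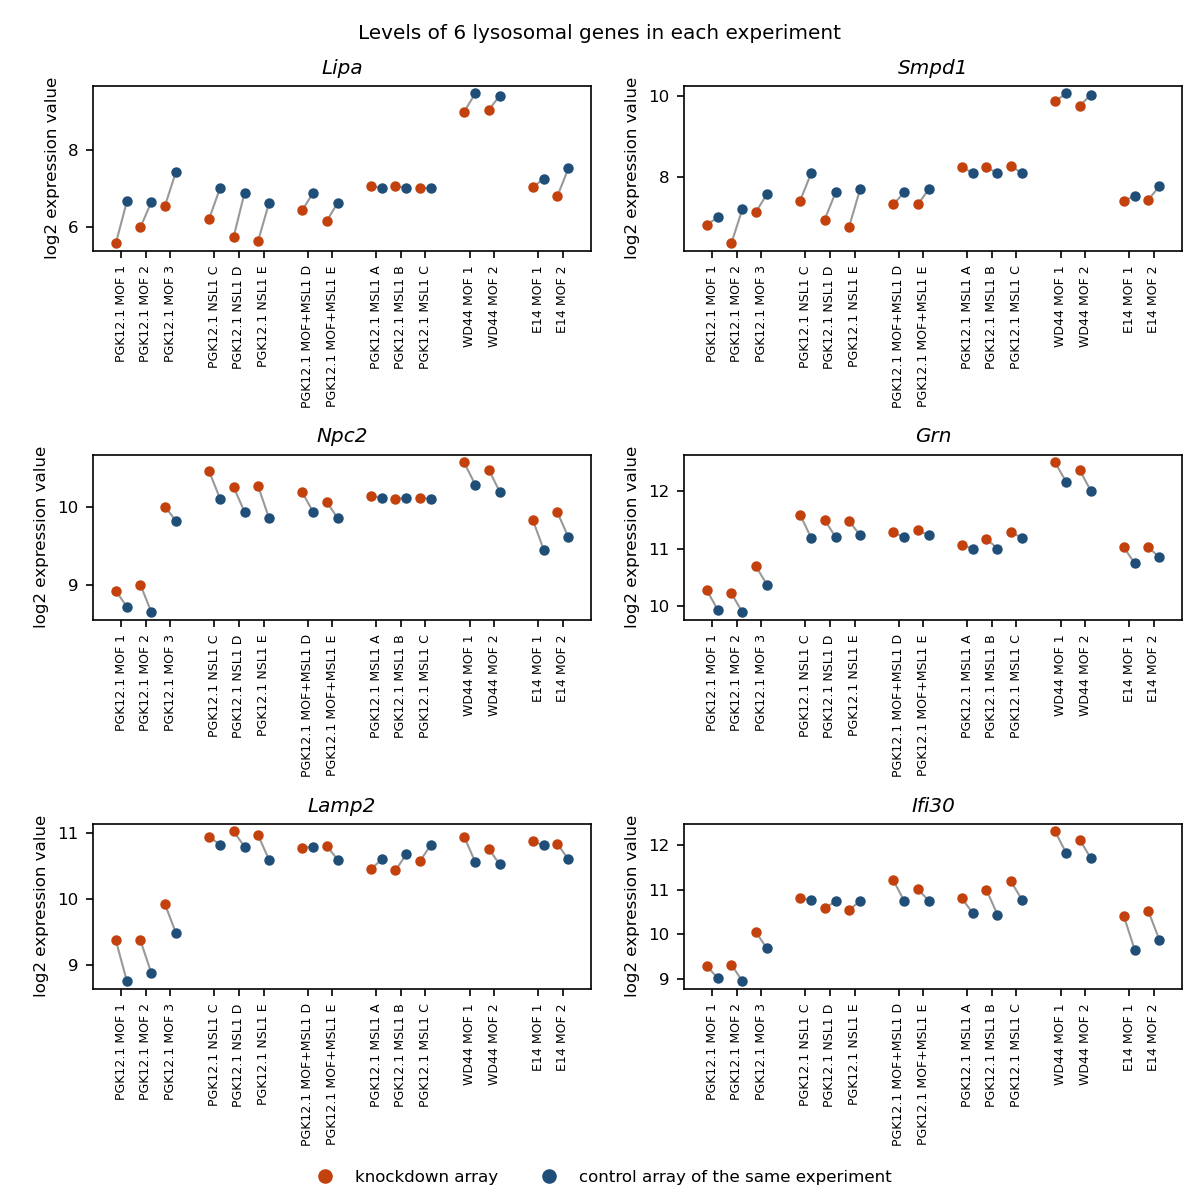
Log2 expression value (y axis, a separate scale per panel) of 6 lysosomal genes in each experiment (x axis), with the knockdown array in orange at the left and the control array of the same experiment in blue at the right, joined by a line. Lipa lines climb towards the control in every MOF and NSL1 pair, Npc2 and Grn lines drop in them, and Ifi30 lines drop in all but the NSL1 pairs D and E.

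Both other luminal proteins rose after MOF siRNA in all 3 lines. Grn, progranulin, a secreted and lysosomal glycoprotein needed for normal lysosomal function, had 10.27, 10.22 and 10.69 after MOF siRNA in PGK12.1, against 9.93, 9.89 and 10.37 in controls. The 3 paired differences were 0.34, 0.33 and 0.32 (fitted 0.33, SE 0.05, limma adjusted p = 0.000201). In NSL1 arrays Grn had 11.59, 11.50 and 11.48, against 11.19, 11.20 and 11.23, without overlap (0.32, SE 0.05, limma adjusted p = 4.17e-05). In WD44 it had 12.50 and 12.37 against 12.16 and 12.01, and in E14 11.02 and 11.02 against 10.74 and 10.85, both called (0.35 and 0.23).

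Ifi30 encodes GILT, a thiol reductase that opens disulfide bonds of antigens in the lysosome. It was the 1 member called after MSL1 siRNA, with 10.80, 10.99 and 11.18 (A, B, C), against 10.47, 10.44 and 10.77 in controls (0.40, SE 0.06, limma adjusted p = 0.00909). All 3 MSL1 values lay above all 3 control values, but the call was lost without any 1 of these 6 arrays and without the block (adjusted p = 0.356). In E14 it had 10.41 and 10.52 after MOF siRNA, against 9.65 and 9.88 in controls, its largest rise (0.70, SE 0.08, limma adjusted p = 0.000364). It also rose after MOF siRNA in PGK12.1 (9.29, 9.33 and 10.05 against 9.03, 8.96 and 9.69) and in WD44 (12.29 and 12.11 against 11.81 and 11.70). With MOF and MSL1 targeted together it had 11.21 and 11.01, against 10.74 and 10.75 (0.41, limma adjusted p = 0.00567). In NSL1 arrays Ifi30 was not called and had 10.80, 10.58 and 10.54, against 10.77, 10.74 and 10.75.

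Among the membrane proteins Lamp2, an X-linked glycoprotein of the lysosomal lining, rose most. It had 9.38, 9.38 and 9.93 after MOF siRNA in PGK12.1, against 8.76, 8.88 and 9.49 in controls (0.52, SE 0.06, limma adjusted p = 4.16e-05), higher by 0.62, 0.50 and 0.44 within the pairs. In NSL1 arrays it had 10.95, 11.03 and 10.97, against 10.83, 10.80 and 10.60, without overlap (0.24, SE 0.06, limma adjusted p = 0.00409). In WD44 it had 10.95 and 10.77 after MOF siRNA, against 10.57 and 10.53 (0.31, limma adjusted p = 0.0165). After MSL1 siRNA the values were 10.46, 10.44 and 10.58, against 10.61, 10.69 and 10.83 in controls, lower in each pair without passing the test. Lamp1, its autosomal relative, was called in WD44 alone, with 12.75 and 12.63 against 12.58 and 12.45.

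Scarb2, the membrane receptor that carries glucocerebrosidase to lysosomes, rose after MOF siRNA in PGK12.1 (8.87, 8.88 and 9.38 against 8.58, 8.61 and 9.15) and in NSL1 arrays (8.19, 8.17 and 8.27 against 8.13, 7.91 and 7.73). Npc1, which takes cholesterol from Npc2, rose in NSL1 arrays, with 10.07, 9.74 and 9.87 against 9.83, 9.45 and 9.54 (0.30, SE 0.05, limma adjusted p = 0.00014). Cd63, a tetraspanin of late endosomes, fell in NSL1 arrays, with 10.44, 10.63 and 10.37 against 11.01, 10.84 and 10.71. Laptm4a, a small transmembrane protein of lysosomes, rose by 0.13 after MOF siRNA in PGK12.1.

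Of the glycosidases, Glb1, the acid beta-galactosidase, rose in 4 comparisons, each time by a small amount. It had 8.62, 8.64 and 9.55 after MOF siRNA in PGK12.1 against 8.50, 8.52 and 9.25 in controls (0.18, limma adjusted p = 0.0117), and 10.79, 10.80 and 10.78 in NSL1 arrays against 10.55, 10.62 and 10.52 (0.23, limma adjusted p = 0.000923). The paired differences were 0.25 and 0.21 in WD44 and 0.26 and 0.26 in E14, both called. Hexa, the alpha subunit of beta-hexosaminidase A, had 8.88, 8.83 and 9.90 against 8.74, 8.67 and 9.67 after MOF siRNA, and 10.44, 10.02 and 9.95 against 10.22, 9.72 and 9.69 in NSL1 arrays, called in both (0.18 and 0.29). Gaa, the acid alpha-glucosidase, rose by 0.22 in NSL1 arrays, and Man2b1, an alpha-mannosidase, by 0.17 after MOF siRNA in PGK12.1.

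The glycosidases that fell did so mainly in NSL1 arrays. Naglu, which trims glucosamine residues from heparan sulfate, had 6.09, 5.28 and 5.56, against 6.46, 6.08 and 6.04 in controls (-0.54, SE 0.07, limma adjusted p = 1.91e-05). Fuca1, the alpha-fucosidase, had 9.58, 9.29 and 9.25, against 9.95, 9.94 and 9.80, without overlap (-0.49, SE 0.07, limma adjusted p = 3.32e-05). The NSL1 values of Naglu were lower in each pair, and one of them lay above 2 of the controls. Manba, a beta-mannosidase, fell by 0.20, and Neu1, a sialidase, by 0.18. Gusb, the beta-glucuronidase, fell by 0.21 after MOF siRNA in PGK12.1 (7.52, 7.62 and 8.25 against 7.80, 7.81 and 8.42) and by 0.14 in NSL1 arrays, where the pair of experiment C did not differ (8.96 in both).

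The peptidases held the largest fall of any member. Ctsz, cathepsin Z, a cysteine carboxypeptidase, had 8.49, 8.31 and 8.20 in NSL1 arrays (C, D, E), against 9.23, 9.49 and 9.68 in controls (-1.09, SE 0.11, limma adjusted p = 1.6e-06). That left 47% of the control level by the fitted fold, and all 3 arrays lay below all controls. After MOF siRNA in PGK12.1 Ctsz had 9.50, 9.45 and 10.09, against 10.15, 9.93 and 10.42, lower by 0.65, 0.48 and 0.33 (-0.49, SE 0.11, limma adjusted p = 0.00535). The male lines had 11.30 and 11.18 after MOF siRNA against 11.31 and 11.30 in WD44, and 9.97 and 10.02 against 10.07 and 10.20 in E14, without passing the test.

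Ctsc, cathepsin C, a dipeptidyl peptidase that activates serine proteases, moved in opposite directions. It fell to 6.37, 6.42 and 7.07 after MOF siRNA in PGK12.1, against 6.79, 6.70 and 7.30 in controls (-0.31, SE 0.06, limma adjusted p = 0.00259). In NSL1 arrays it had 9.12, 9.72 and 9.59, against 8.59, 9.37 and 9.40, higher in each pair (0.35, SE 0.06, limma adjusted p = 0.000306). Without the block the fall after MOF siRNA was not called (adjusted p = 0.353).

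Ctsd, the aspartic protease cathepsin D, rose after MOF siRNA in PGK12.1, with 10.74, 10.72 and 11.63 against 10.46, 10.42 and 11.25 in controls (0.32, SE 0.07, limma adjusted p = 0.00271). It also rose in WD44, with 12.57 and 12.40 against 12.31 and 12.13 (0.27). Ctsb, cathepsin B, fell by 0.21 after MOF siRNA in PGK12.1 (8.53, 8.6 and 9.26 against 8.67, 8.81 and 9.54). Ctsf, cathepsin F, fell by 0.29 in NSL1 arrays (7.86, 7.47 and 7.34 against 8.15, 7.67 and 7.71). Ctsl, cathepsin L, rose by 0.28 in WD44, with paired differences of 0.17 and 0.38. Of the 5 cysteine cathepsins tested (Ctsb, Ctsc, Ctsf, Ctsl and Ctsz), 3 fell and none rose after MOF siRNA in PGK12.1, and 1 rose and 2 fell in NSL1 arrays. Over all genes tested 9.84% rose and 14.6% fell after MOF siRNA in PGK12.1, and 18.8% and 22.4% in NSL1 arrays. Of the 3 falls after MOF siRNA, those of Ctsb (limma adjusted p = 0.108) and Ctsc were not called without the block.

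The sulfatases, which remove sulfate from glycosaminoglycans and sulfatide, fell in 4 of 5 cases in NSL1 arrays, and none rose. Galns had 7.60, 7.24 and 6.98, against 7.95, 7.80 and 7.68 in controls (-0.52, SE 0.07, limma adjusted p = 2e-05). Arsa had 6.88, 6.08 and 6.17, against 7.33, 6.85 and 6.53 (-0.51, SE 0.08, limma adjusted p = 0.000144). Ids, the X-linked iduronate sulfatase, had 9.14, 8.93 and 9.0, against 9.47, 9.44 and 9.31 (-0.39, SE 0.06, limma adjusted p = 0.000169). Galns and Ids did not overlap between the groups, while Arsa was lower in each pair with overlapping groups.

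Sgsh, the heparan sulfamidase, fell as well in NSL1 arrays, with 7.30, 6.60 and 6.79 against 7.56, 7.21 and 7.12 (-0.38, SE 0.07, limma adjusted p = 0.000362). Arsb stood at -0.12 and was not called. With MOF and MSL1 targeted together no sulfatase was called (median -0.202), while 4 of the 5 were called lower without the block. The calls without the block also carry the step in level between experiments A to C and D and E. After MOF siRNA in PGK12.1 Ids fell by 0.31 and Arsa by 0.24, and Arsa did not differ in experiment 3 (6.93 in both arrays). Sumf1, the enzyme that activates sulfatases by modifying their catalytic cysteine, is not a member but fell by 0.79 in NSL1 arrays (SE 0.07, limma adjusted p = 7.39e-07).

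MOF siRNA and the NSL1 arrays share no arrays in PGK12.1, so that calls in both can be set side by side. Of the 10 members higher after MOF siRNA and the 11 higher in NSL1 arrays, 6 were higher in both (Glb1, Grn, Hexa, Lamp2, Npc2 and Scarb2), which is 60% and 54.5% of the lists. Of the 9 and 14 lower members 6 were lower in both (Arsa, Ctsz, Gusb, Ids, Lipa and Smpd1), which is 66.7% and 42.9%. Over all genes tested the same shares were 56% and 29.3% for higher calls and 63.3% and 41.3% for lower calls. Members called in both made up 15% of the 40 in each direction, against 5.51% of all genes for higher and 9.25% for lower calls, and these differences in share were not tested. Ctsc and Galc fell after MOF siRNA and rose in NSL1 arrays. Without the block, 3 members were higher in both (Glb1, Grn and Lamp2) and 4 lower in both (Ctsz, Ids, Lipa and Smpd1).

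The difference of the fold changes, NSL1 minus MOF, was itself tested, and it was called for 12 members (3 higher and 9 lower, where 16% of all probesets were called, 8.22% higher and 7.78% lower). It was higher for Ctsc (0.66, SE 0.09, limma adjusted p = 0.000403), Galc (0.55, SE 0.08, limma adjusted p = 0.000742) and Ctsb (0.25). It was lower for Ctsz (-0.60), Naglu (-0.47), Fuca1 (-0.47), Ifi30 (-0.43), Galns (-0.41), Sgsh (-0.34), Ctsf (-0.32), Lamp2 (-0.28) and Laptm4a (-0.21). For Lipa and Smpd1 the difference was not called. Without the block none of the 12 was called (4.07% of probesets called), and 6 of the 12 kept the call whichever 1 array was left out. Experiments 1 and 2 of MOF siRNA had a second round of RNAi and the NSL1 arrays had none, so the target and the number of rounds cannot be told apart in these 2 experiments.

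**Figure D4:**
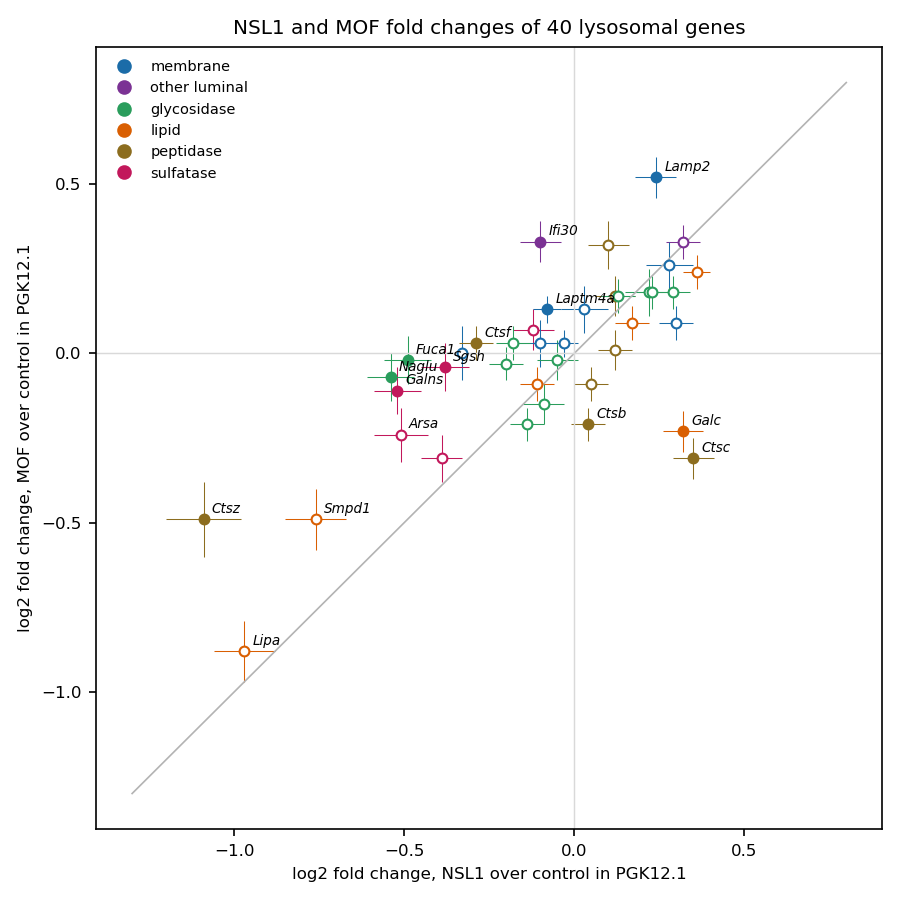
Fitted log2 fold change of 40 lysosomal genes in NSL1 arrays (x axis) and after MOF siRNA (y axis), both over control in PGK12.1, with bars of 1 SE and the diagonal of equal change. Filled points are the 12 genes whose difference limma called, and gene names are given for these and for genes beyond 0.45 in size. Ctsc and Galc lie at the lower right, and Ctsz, Naglu, Fuca1, Galns and Sgsh lie to the left of the diagonal.

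Across the 3 lines MOF siRNA called 4 members higher in all 3 (Glb1, Grn, Ifi30 and Npc2) and 1 lower in all 3 (Lipa), from pairs of groups that share no arrays. Of all genes tested 0.279% were higher and 1.35% lower in all 3 lines. These overlaps rest on the fit with the block. Without it none of these members was called in WD44, and of them Ifi30 alone was called in E14. Kat8 itself fell less in E14 than in PGK12.1 (difference 0.55, limma adjusted p = 0.0132), a call lost without the block (adjusted p = 0.12). Experiments 1 and 2 of PGK12.1 had a second round of RNAi that WD44 and E14 lacked, so line and number of rounds cannot be told apart in them. The lines differed in the fold change of few members. Psap (0.32) and Ctsl (0.37) stood higher in WD44 than in PGK12.1, where 2.21% of probesets were called (0.903% higher and 1.31% lower). Gusb (0.36) stood higher in E14 than in PGK12.1, where 2.5% were called (1.31% higher and 1.19% lower). Without the block none of these 3 was called, where that fit called 0.0983% of probesets for WD44 minus PGK12.1 and 0.0676% for E14 minus PGK12.1.

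The WD44 calls came with a shift in fibroblast markers. Of the 8 measured feeder markers 4 rose after MOF siRNA in WD44, namely Acta2 (0.97), Col1a1 (0.38), Col3a1 (0.31) and Col1a2 (0.31), and none fell. The mean log2 value over the 12 markers was 8.13 to 8.16 in the MOF arrays, against 7.92 to 7.99 in the controls. In E14 Acta2 rose by 0.55 and the mean was 6.30 to 6.35, against 6.22 to 6.24. Without the block none of these 5 calls remained (adjusted p of 0.277 to 0.719). In PGK12.1 none of the 8 was called after MOF siRNA, and in NSL1 arrays Pdgfrb (-0.34) and Thy1 (-0.23) fell. Tyrobp, the 1 macrophage marker measured, rose in WD44 (0.39) and in NSL1 arrays (0.23), and both calls were lost without the block (adjusted p = 0.421 and 0.925). Tyrobp lay near the filter level, with a median of 5.95 over all arrays (5.49 to 7.52). The mean over the 10 macrophage markers was 6.57 to 6.61 in the WD44 MOF arrays, against 6.51 to 6.55 in the controls, and 4.72 to 5.45 in NSL1 arrays, against 4.70 to 5.40.

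Markers of the ES cell state and of endoderm moved as well. Of the 10 ES cell markers, Utf1 (-0.25), Tdgf1 (-0.17) and Nanog (-0.14) fell after MOF siRNA in PGK12.1, Utf1 (-0.25) and Tdgf1 (-0.19) fell in NSL1 arrays, and Sox2 (-0.21) fell in E14. Of these calls, those of Tdgf1 remained without the block. Of 10 measured endoderm markers 3 rose in NSL1 arrays (Dab2 by 0.45, Gata6 by 0.37 and Lamb1 by 0.16). In WD44 Col4a1 rose (0.27) and Dab2 fell (-0.33), and in E14 Lama1 (-0.37) and Lamb1 (-0.27) fell. Of these 7 endoderm calls, Dab2 and Gata6 in NSL1 arrays remained without the block. None of the feeder, macrophage, ES cell or endoderm markers was called after MSL1 siRNA or with both targets. The part of these markers in the results on lysosomal genes was not tested.

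The wider lysosomal pathway was read from lists of genes outside the 42, whose counts stand against 9.84% higher and 14.6% lower over all genes tested after MOF siRNA in PGK12.1, and 18.8% and 22.4% in NSL1 arrays. Of 22 other lysosomal hydrolases measured, 2 rose and 9 fell after MOF siRNA in PGK12.1 (median -0.145), and 3 rose and 12 fell in NSL1 arrays (median -0.274). Siae, a sialic acid esterase, fell by 0.68 after MOF siRNA in PGK12.1, by 1.31 in NSL1 arrays, by 0.43 with both targets and by 0.49 in E14. Lgmn, the asparaginyl endopeptidase that processes cathepsins, fell by 0.64 after MOF siRNA, by 0.71 in NSL1 arrays and by 0.64 with both targets. Acp2, an acid phosphatase, fell by 0.59 and Gm2a, an activator of ganglioside breakdown, by 0.32 after MOF siRNA. In NSL1 arrays Pla2g15, a phospholipase, fell by 0.88, while Naaa, an acid amidase, rose by 0.94.

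Of 25 other membrane proteins, 4 rose and 5 fell after MOF siRNA in PGK12.1, and 4 rose and 7 fell in NSL1 arrays. Cd68, a LAMP family glycoprotein best known from macrophages, was the single member of this list called after MSL1 siRNA (0.46). It also rose after MOF siRNA in PGK12.1 (0.47), WD44 (0.26) and E14 (0.48) and with both targets (0.51), and each of these 5 calls was lost without the block (adjusted p of 0.105 to 0.673). Abca2, a lipid transporter, fell by 0.65, Tmem9 by 0.60 and Vamp7, a SNARE of late endosomes, by 0.58 in NSL1 arrays.

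Among 17 genes of the TFEB family and of mTORC1 control at the lysosome, 5 rose and 3 fell after MOF siRNA in PGK12.1, and 5 rose and 6 fell in NSL1 arrays. Flcn, the folliculin GTPase activator, rose by 0.43 after MOF siRNA, by 0.57 in NSL1 arrays and by 0.52 with both targets. Rragd, a Rag GTPase, rose by 0.43 after MOF siRNA and by 0.60 in NSL1 arrays. Slc38a9, the arginine sensor of the lysosomal membrane, fell by 0.39 after MOF siRNA in PGK12.1, by 0.92 in NSL1 arrays, by 0.40 with both targets and by 0.65 in E14. None of the 17 was called in WD44.

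Of 15 subunits of the V-ATPase, the proton pump that acidifies the lysosome, 2 fell and none rose after MOF siRNA in PGK12.1, and 4 rose and 5 fell in NSL1 arrays. Atp6v0a1, a membrane subunit of the pump, fell by 0.22 after MOF siRNA, by 0.66 in NSL1 arrays, by 0.34 with both targets and by 0.41 in E14. Of 19 genes that sort enzymes to lysosomes, 2 rose and 6 fell after MOF siRNA, and 4 rose and 4 fell in NSL1 arrays. Sort1, the sorting receptor sortilin, fell by 0.23 after MOF siRNA, a call lost without the block (adjusted p = 0.58), and by 0.38 in NSL1 arrays, where it remained. Igf2r, the large mannose phosphate receptor, fell by 0.21 after MOF siRNA.

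Promoter windows are shown for the 6 members called in at least 3 comparisons. Each moved in the same direction in comparisons that share no arrays, as did some members called in fewer. Each window runs from 250 bases before to 50 bases after the RefSeq start (GRCm38.p6), 5′ to 3′ on the gene's strand. Capitals mark CACGTG, the core E-box bound by TFEB and TFE3, its extension TCACGTGA, and CCAAT or its reverse complement ATTGG, the box bound by NF-Y. The first 2 motifs are palindromes that overlap each other, and the search covered both strands. The CCAAT box was added after the sequences had been seen.

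Glb1 (chr9:114400828-114401127, + strand): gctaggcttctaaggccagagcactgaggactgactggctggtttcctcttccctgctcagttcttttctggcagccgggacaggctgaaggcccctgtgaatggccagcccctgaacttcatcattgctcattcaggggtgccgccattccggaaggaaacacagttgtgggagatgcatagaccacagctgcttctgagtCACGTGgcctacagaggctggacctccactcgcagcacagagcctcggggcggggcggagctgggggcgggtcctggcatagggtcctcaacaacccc
Lipa (chr19:34527425-34527724, - strand): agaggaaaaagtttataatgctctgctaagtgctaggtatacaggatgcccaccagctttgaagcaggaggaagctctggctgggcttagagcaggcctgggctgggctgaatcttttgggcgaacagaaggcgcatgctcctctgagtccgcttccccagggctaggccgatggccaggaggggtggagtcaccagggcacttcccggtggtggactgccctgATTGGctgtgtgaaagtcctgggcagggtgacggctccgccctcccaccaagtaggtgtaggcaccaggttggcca
Npc2 (chr12:84773063-84773362, - strand): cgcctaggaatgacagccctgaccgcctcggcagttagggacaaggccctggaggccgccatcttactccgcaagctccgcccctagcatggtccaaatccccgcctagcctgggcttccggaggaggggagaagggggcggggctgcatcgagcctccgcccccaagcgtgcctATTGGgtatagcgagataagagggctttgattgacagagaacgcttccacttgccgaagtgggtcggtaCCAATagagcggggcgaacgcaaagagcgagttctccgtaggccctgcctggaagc
Lamp2 (chrX:38456411-38456710, - strand): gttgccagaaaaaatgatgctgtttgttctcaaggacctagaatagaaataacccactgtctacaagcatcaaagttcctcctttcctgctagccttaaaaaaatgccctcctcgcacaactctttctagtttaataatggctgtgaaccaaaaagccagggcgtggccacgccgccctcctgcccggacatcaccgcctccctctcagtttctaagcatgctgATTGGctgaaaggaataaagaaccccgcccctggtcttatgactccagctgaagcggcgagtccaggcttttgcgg
Grn (chr11:102430257-102430556, + strand): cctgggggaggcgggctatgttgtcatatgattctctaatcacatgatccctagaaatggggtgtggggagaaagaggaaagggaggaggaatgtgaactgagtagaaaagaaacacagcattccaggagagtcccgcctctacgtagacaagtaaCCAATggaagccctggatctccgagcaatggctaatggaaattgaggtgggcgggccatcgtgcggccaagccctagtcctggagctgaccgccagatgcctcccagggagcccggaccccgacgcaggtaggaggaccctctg
Ifi30 (chr8:70766614-70766913, - strand): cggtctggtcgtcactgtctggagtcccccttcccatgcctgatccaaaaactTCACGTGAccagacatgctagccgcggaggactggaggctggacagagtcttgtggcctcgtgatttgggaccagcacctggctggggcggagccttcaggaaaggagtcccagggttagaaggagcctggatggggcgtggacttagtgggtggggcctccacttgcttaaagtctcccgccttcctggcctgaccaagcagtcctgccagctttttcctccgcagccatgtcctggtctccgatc

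The core E-box CACGTG lay in the windows of 14 of the 36 tested members for which the table has a window (38.9%), against 8.09% of 27025 genes and 7.15% of 32851 windows. TCACGTGA lay in those of 6 members (16.7%), against 1.12% of genes and 0.974% of windows. CCAAT lay in those of 14 members (38.9%), against 41.1% of genes and 37.4% of windows. The members had passed the level filter, while these genes and windows were counted whatever their level. Of the 6 windows shown, those of Glb1 and Ifi30 held the E-box and no CCAAT, and those of Lipa, Npc2, Lamp2 and Grn held CCAAT and no E-box. Lipa, which fell, and Npc2, Lamp2 and Grn, which rose, therefore share the CCAAT letters.

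Members with and without the E-box were called in both directions. After MOF siRNA in PGK12.1, 3 of the 14 members with CACGTG rose and 1 fell (median 0.03), against 7 higher and 7 lower of the 22 without it (median -0.01). In NSL1 arrays 2 of the 14 rose and 4 fell (median -0.06), against 7 higher and 9 lower of the 22 (median -0.10). In WD44 5 of the 14 rose and none fell (median 0.12), against 4 higher and 1 lower of the 22 (median 0.05). Over all genes tested 9.84% rose and 14.6% fell after MOF siRNA in PGK12.1, 18.8% and 22.4% in NSL1 arrays, and 4.45% and 8.28% in WD44. The windows held fixed letters in the reference genome, no binding was measured, and these differences were not tested.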

How the data were processed

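The 27 arrays measured total RNA of mouse ES cells, and the deposited values are log2 expression values per probeset (35556 probesets). Per the submitters' processing notes the authors used RMA in Affymetrix Expression Console (background correction, quantile normalization and probe summary). Tool versions and the genome build are not given in the sources used here. For arrays there is no read depth, and the precision is limited by how many there are.

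Names came from the platform annotation, updated through RefSeq genes of GRCm38.p6. Of all probesets 21789 had 1 symbol, 1621 had several and 12146 had none. Those with a symbol and a log2 value averaging 6 or more entered the tests (16283). Of the tested members 39 had 1 such probeset, and for Arsb, which had several, the brightest was taken and none was called. Groups came from the labels (10 groups, 12 experiments). No pair of arrays held identical values.

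Limma 3.58.1 in R 4.3.3 fitted 6 knockdown effects with the experiment as a block, leaving 9 residual degrees of freedom, with Benjamini-Hochberg adjustment. The block was used because the labels name the experiment of each control array and because array medians step between sets. Deviations from the group means correlated at 0.545 to 0.867 between paired arrays for MOF and NSL1 in PGK12.1, -0.046 to 0.358 for MSL1, -0.097 and 0.262 for both targets, 0.011 in WD44 and 0.129 in E14, so the pairing rests on the labels. The fit without the block has group means and a term for 2 rounds of RNAi. It sets NSL1, MSL1 and double-target arrays against all controls A to E, so it also carries the step between A to C and D and E. Where NSL1, MSL1 and double-target arrays share a control, the fitted value draws on all arrays of the experiment and can differ from a single pair. The fit was tested on simulated data.

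Members and lists were chosen with earlier results of these data known. The targets were named as checks, and each member called at least once is given by value. From each list up to 4 genes with the smallest p among those called were eligible. Promoters come from members called in at least 3 comparisons, fewer members than the plan foresaw. Sequences come from the RefSeq table, in which 36 of the 40 tested members had a window, and the protein sequences foreseen for the cysteine cathepsins were not used here. Alternatives were other scalings, filters, array weights, own arrays only, a trended robust fit, the mean of a gene's probesets, and leaving out each array.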

Additional observations from a re-analysis of the deposited data

Results flagged for a closer look

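In the control array B of PGK12.1, Arsb stood at 6.99 while the other 4 control arrays A to E lay between 6.77 and 6.79. Lamp1 stood at 12.12 in the same array, against 12.16 to 12.17 in the other 4. Each was set apart by the gap to its neighbour relative to the range of the 5 controls. Chance sets apart about 1 in 20 such groups, and 2 of the 40 groups of member values examined were set apart. Neither gene was called after MSL1 siRNA, the comparison that uses this array.

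For 3 members the fold change after MOF siRNA differed between lines by the test of the difference itself. Psap stood higher in WD44 than in PGK12.1 by 0.32 (limma adjusted p = 0.0401), Ctsl by 0.37 (limma adjusted p = 0.0302), and Gusb stood higher in E14 than in PGK12.1 by 0.36 (limma adjusted p = 0.0384). Psap and Gusb lost the call without any 1 of the 10 arrays involved, Ctsl without 8 of the 10, and all 3 without the replicate block (adjusted p = 0.356, 0.249 and 0.214). Of the PGK12.1 arrays in these differences, experiments 1 and 2 had a second round of RNAi that WD44 and E14 did not have, so line and rounds cannot be told apart there. Feeder markers were also higher in the WD44 MOF arrays, and their part in the result was not tested.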

How the results depend on the processing

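No called member changed direction under any alternative or left-out array. Across the 78 calls of members in the 6 comparisons and 3 differences, 78 were kept with cyclic loess, with a trended robust fit and with the mean of a gene's probesets, 71 with array weights, 67 with median centring and 53 with no filter on low values. Without the replicate block 29 were kept, and with own arrays only 39. Under every left-out array and every alternative that tested the gene, 5 of 19 calls held for MOF in PGK12.1 (Grn, Lipa, Ctsz, Ctsd and Lamp2). For NSL1 16 of 25 held, and elsewhere 0. Among these 16, Naglu (mean 6.405) and Arsa (mean 6.97) were not tested with the filter at a mean log2 of at least 7. Without the replicate block the counts of called members were 9 for MOF in PGK12.1, 0 for MSL1, 7 for both targets, 0 in WD44 and 1 in E14, and 0 for each of the 3 differences between comparisons. With own arrays only they were 8, 0 (MSL1), 0 (WD44) and 0 (E14), 0 and 0 for the differences of WD44 and E14 from PGK12.1, and 6 for NSL1 minus MOF. With no filter on low values they were 0 for MSL1, 1 for both targets, 4 in WD44, 2 in E14, and 0, 0 and 7 for the differences. Array weights gave 2 for MSL1, 10 for both targets, and 0 and 2 for the differences of WD44 and E14. For WD44 minus PGK12.1 median centring gave 1. For E14 minus PGK12.1 it gave 3, cyclic loess 2 (1 higher and 1 lower), a mean log2 of at least 7 gave 4, the trended robust fit 5 and the mean of probesets 3. Leaving out 1 array gave 13 to 15 members for MOF in PGK12.1, 0 to 1 for MSL1, 22 to 26 for NSL1, 0 to 4 for both targets, 1 to 2 in WD44, 2 to 3 in E14, 0 to 1 for WD44 minus PGK12.1, 0 for E14 minus PGK12.1 and 7 to 12 for NSL1 minus MOF. Counts over all probesets also changed with these settings. The causes were not tested. Fold changes of WD44 and E14 rest on 2 arrays a group.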
